A study of Mus musculus with 10 samples.

Results

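Interferon-stimulated genes are genes that cells switch on when type I interferon binds its receptor. A list of 37 of them, named by symbol, was followed in mouse leukaemia cells, out of 19938 genes measured. For each gene, only probe sets that the platform annotation gives to that gene alone were used, and the brightest one stands for the gene. Of the 37 members, 34 were measured in this way and 31 passed the filter on low signals, a mean log2 level of 6.23, with which 15662 genes were tested in all. Isg15, an interferon-induced modifier protein, and Gbp2, a guanylate-binding protein, lay only on probe sets with several symbols, and Ifi44 was not named by the annotation. The dynamin-like antiviral GTPase genes Mx1 and Mx2 and the receptor transporter gene Rtp4 were below the filter, at 5.53 to 5.83, 5.66 to 5.98 and 5.79 to 6.11 over the 10 arrays.

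The cells came from 5 independent primary acute myeloid leukaemias of mice that were driven by the MLL-AF9 fusion, and each leukaemia was 1 line. All 5 lines carried Cre-ER, a recombinase that tamoxifen switches on. Lines 10949, 10950 and 10986 carried a floxed allele of Zfx (Zfx fl/y), which encodes a zinc finger transcription factor on the X chromosome, and lines 10977 and 10980 the wild-type allele (wt/y). Each line was cultured for 72 h with 10 nM 4-hydroxytamoxifen (4-OHT) or ethanol vehicle, c-Kit-positive cells were sorted, and their RNA was put on 1 array per line and treatment. This made 4 groups, with 3 arrays each for fl under vehicle and under 4-OHT and 2 each for wt. The medium was the same in all groups: serum made up 20% of it, and stem cell factor was present at 20 ng/mL. It also held IL-6, as well as IL-3, with 10 ng/mL given for these cytokines. Their part in the levels of the members was not tested. The sources used here do not give the promoter of the Cre-ER transgene or the strain and age of the mice. Per the series title, the question was how deletion of Zfx alters expression in these cells.

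Type I interferon signals through IFNAR1 and IFNAR2 and the kinases JAK1 and TYK2 to a transcription factor complex called ISGF3, which holds STAT2 and IRF9. This complex binds the interferon-stimulated response element, or ISRE, in the promoters of its target genes. The targets include receptors that sense viral RNA and DNA, enzymes that degrade RNA or block translation, membrane proteins that stop viral entry, and feedback regulators, and many of them are expressed at a low level in myeloid cells without added interferon.

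The promoters of the members were read for this element. The RefSeq table of assembly GRCm38.p6 gave windows of 250 bases before to 50 bases after the start site for 28 of the 37 members. It gave none for Dhx58, Zbp1, Usp18, Parp9, Parp14, Oas2, Mx1, Mx2 and Rtp4, so they were not searched. The ISRE core, that is GAAA, any 2 bases and GAAA again, searched on both strands, was present in 15 of these 28 genes (53.6%), against 3.99% of all 27025 genes with a window and 3.44% of all 32851 windows. With a C after the core, the shares were 42.9% of the members and 0.944% of all genes. Overlapping matches counted as separate matches.

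Windows of 6 members are printed for their values below. Parp14 and Zbp1, also prominent there, had no window to print. Capitals mark the ISRE core on either strand. Gbp3 and Ifitm3 gave the largest log2 differences with 4-OHT in the fl lines, Ddx58 and Eif2ak2 differed in direction between the genotypes, Ifit1 is a much used interferon reporter gene, and Samd9l, which had the most negative differences between fl and wt lines, has no such letters in its window. They are the windows chr3:142559794-142560093 on the plus strand for Gbp3, chr7:141010695-141010994 on the minus strand for Ifitm3, chr4:40239776-40240075 on the minus strand for Ddx58, chr17:78882523-78882822 on the minus strand for Eif2ak2, chr19:34640639-34640938 on the plus strand for Ifit1 and chr6:3399522-3399821 on the minus strand for Samd9l.
Gbp3: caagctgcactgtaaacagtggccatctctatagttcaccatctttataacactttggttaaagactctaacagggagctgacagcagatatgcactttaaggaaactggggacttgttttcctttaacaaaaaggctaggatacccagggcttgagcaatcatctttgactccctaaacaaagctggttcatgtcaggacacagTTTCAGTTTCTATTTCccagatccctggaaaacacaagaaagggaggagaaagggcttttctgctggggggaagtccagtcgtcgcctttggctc
Ifitm3: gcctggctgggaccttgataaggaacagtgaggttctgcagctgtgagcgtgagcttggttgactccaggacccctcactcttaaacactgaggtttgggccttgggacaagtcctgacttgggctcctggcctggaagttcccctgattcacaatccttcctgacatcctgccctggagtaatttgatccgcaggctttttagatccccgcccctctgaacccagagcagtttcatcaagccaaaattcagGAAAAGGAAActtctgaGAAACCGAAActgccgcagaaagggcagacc
Ddx58: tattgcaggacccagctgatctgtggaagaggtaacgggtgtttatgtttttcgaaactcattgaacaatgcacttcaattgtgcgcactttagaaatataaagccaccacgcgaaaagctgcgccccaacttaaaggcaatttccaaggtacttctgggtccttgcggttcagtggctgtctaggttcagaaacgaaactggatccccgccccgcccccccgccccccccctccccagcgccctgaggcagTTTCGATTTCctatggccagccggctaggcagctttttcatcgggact
Eif2ak2: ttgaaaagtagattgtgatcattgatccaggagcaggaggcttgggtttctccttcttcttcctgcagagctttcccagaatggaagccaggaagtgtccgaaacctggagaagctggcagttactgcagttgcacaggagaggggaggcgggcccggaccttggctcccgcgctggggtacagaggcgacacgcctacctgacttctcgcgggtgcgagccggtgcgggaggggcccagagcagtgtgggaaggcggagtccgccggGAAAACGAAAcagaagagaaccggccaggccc
Ifit1: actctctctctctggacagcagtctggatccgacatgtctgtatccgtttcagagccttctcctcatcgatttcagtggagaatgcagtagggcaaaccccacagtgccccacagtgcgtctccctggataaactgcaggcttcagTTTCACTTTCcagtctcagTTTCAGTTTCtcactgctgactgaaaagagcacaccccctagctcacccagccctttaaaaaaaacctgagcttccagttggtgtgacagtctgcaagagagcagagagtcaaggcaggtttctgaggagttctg
Samd9l: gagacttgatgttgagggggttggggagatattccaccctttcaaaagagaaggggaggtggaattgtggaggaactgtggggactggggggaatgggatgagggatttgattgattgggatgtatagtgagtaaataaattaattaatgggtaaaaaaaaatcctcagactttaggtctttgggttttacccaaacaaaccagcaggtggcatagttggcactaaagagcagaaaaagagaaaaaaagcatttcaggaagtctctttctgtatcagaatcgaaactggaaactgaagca
Gbp3, Ifitm3 and Ifit1 each hold 2 cores, overlapping in Gbp3, and Ddx58 and Eif2ak2 hold 1 each. Another start site of Gbp3 in the table has a window without the core.

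Among the 10 arrays, that of line 10986 under vehicle was unlike the others. On the first principal component (47.2% of the variance) it scored 49.4 and the other 9 scored between -20.4 and 23.0. It correlated with them at a mean of 0.961, where their own means were 0.979 to 0.985. On this array 13 of the 31 tested members had their lowest level, as did 4086 of all 15662 genes. Where leaving out line 10986 moved a change by over 1.5 times, or changed its sign or call, the value without that line is given for most named members. The probe set of Zfx did not fall with 4-OHT in the fl lines (9.24 to 10.09 under vehicle, 9.98 to 10.07 under 4-OHT, log2 change 0.37, SE 0.16, limma adjusted p = 0.407). The sources used here do not say which part of Zfx is deleted or where its probes lie, so this level checks neither the deletion nor the labels. Kit, which defines the sort, lay between 8.35 and 9.94 on all arrays, and its change in the fl lines was 0.20 (SE 0.12, limma adjusted p = 0.574). Of 10 tested markers of monocytes and macrophages, 8 were higher in all 3 fl pairs, against 14.6% of all genes. Vcan and Ctss among them rose, with an adjusted p under 0.05. The mean level of these monocyte markers was 8.74 to 9.06 on the fl vehicle arrays, 9.34 to 10.14 on the fl 4-OHT arrays, 9.31 to 9.49 on the wt vehicle arrays and 9.11 to 9.60 on the wt 4-OHT arrays. Of 9 tested neutrophil markers, Mmp8 rose. The 6 tested markers of plasmacytoid dendritic cells, which make interferon, had a median change of -0.02 in the fl lines, and Ccr9 and Clec10a of the same list were below the filter. Among the tested ones, Siglech lay between 6.46 and 6.82 and Tcf4 had a mean of 9.98. In bulk RNA, fewer cells of a type and less RNA per cell cannot be told apart, and the part of the monocyte and neutrophil markers in the values below was not tested.

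With 4-OHT the members were more often higher than lower in the fl lines, but none passed the test. In limma with the line as a block and Benjamini-Hochberg adjustment over all genes, 0 of 31 members had an adjusted p under 0.05, where 0.153% of all genes did. At an unadjusted p under 0.05 there were 10 members, against 12.3% of all genes. The median log2 change of the members was 0.18, beside -0.00 over all genes tested. Of the 31, 15 were higher in all 3 fl pairs (48.4%, against 14.6% of all genes) and 3 were lower in all 3 (9.68%, against 14.5%). The 15 were the sensor genes Ddx58, Dhx58 and Zbp1, the regulators Usp18, Dtx3l and Parp14, Ifit1, Oas1a, Oas3, Eif2ak2, Ifitm1, Ifitm2, Ifitm3, Gbp3 and Xaf1, and the 3 were Stat2, Cmpk2 and Bst2. In lines 10949 and 10950 alone, 16 members were higher in both (51.6%, against 33.6% of all genes).

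The size of the changes varied by line. In lines 10949, 10950 and 10986 the members had median changes of 0.17, 0.06 and 0.38, where the medians of all genes were -0.01, 0.04 and -0.04. In the wt lines it was -0.03 in line 10977 and -0.09 in line 10980. The members were thus highest relative to vehicle in the line whose vehicle array stood apart. In that line the change of all genes moved with their level. The median ran from -0.17 in the dimmest of 4 equal level groups to 0.41 in the brightest. There, 25 of the 31 members exceeded the median of their own level group. In the brightest group, with Ifitm1, Ifitm2, Ifitm3 and Psmb8, 2 of 4 members did, and their median was 0.36. Without line 10986, 3 members passed the test, where 2.81% of all genes did: Parp14 at 0.54 (SE 0.09, limma adjusted p = 0.0316), Gbp3 at 0.79 (SE 0.14, adjusted p = 0.032) and, downwards, Samd9l at -0.56 (SE 0.09, adjusted p = 0.0247). The median of the members was then 0.13.

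**Figure D1:**
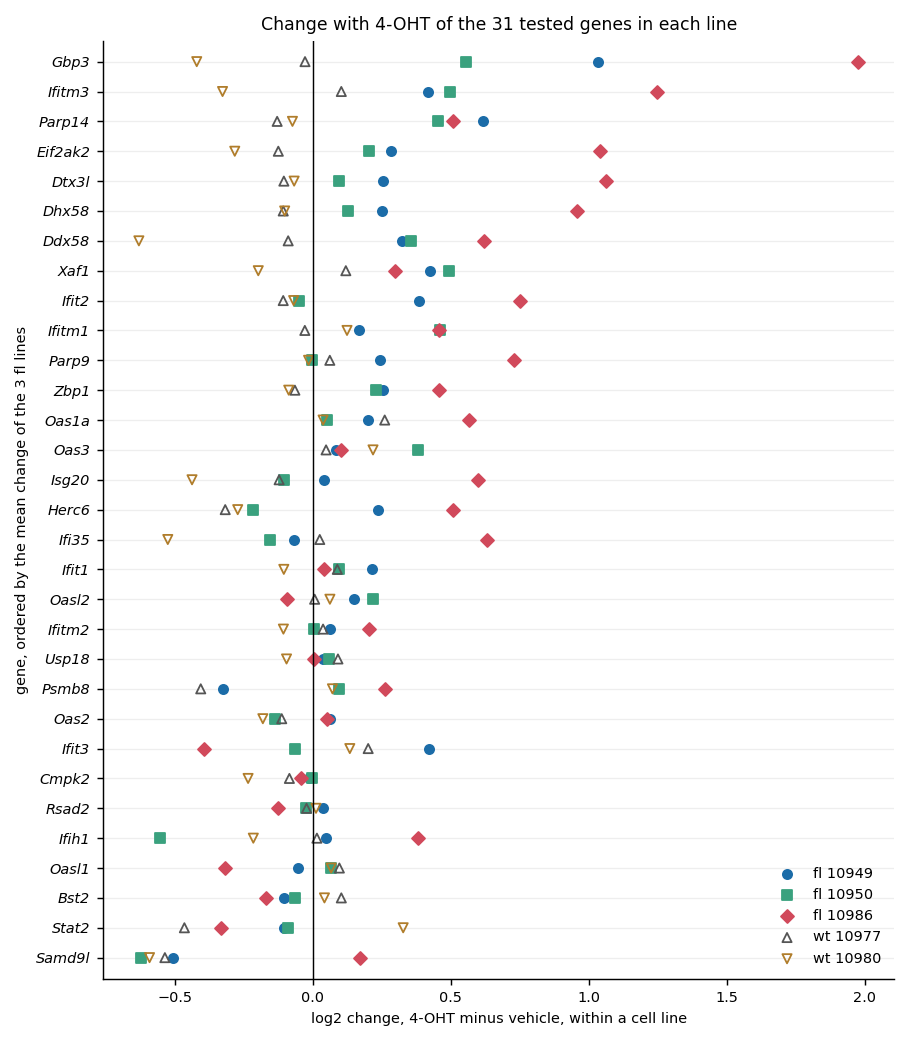
Log2 change with 4-OHT (4-OHT minus vehicle) of each of the 31 tested members in each of the 5 lines, 3 fl and 2 wt. Of the members, 15 lie above 0 in all 3 fl lines and 13 lie below 0 in both wt lines, and line 10986 has the highest median, 0.38.

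**Figure D2:**
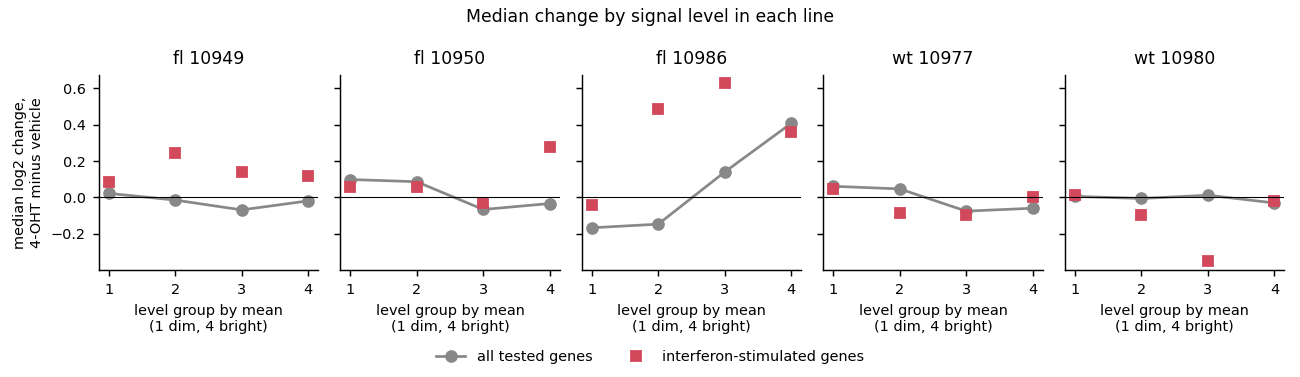
Median log2 change with 4-OHT in each of 4 equal groups of genes by mean log2 level, for all genes tested and for the members, by line. In line 10986 the median of all genes runs from -0.17 in the dimmest group to 0.41 in the brightest, and the members lie at -0.04, 0.48, 0.63 and 0.36.

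Among the receptors of nucleic acid, 3 of 4 members were higher in all 3 fl pairs and none passed the test. Ddx58 encodes RIG-I, the cytosolic sensor of viral RNA with a triphosphate end. Its log2 level went from 8.77 to 9.09, from 8.33 to 8.68 and from 8.14 to 8.76 in lines 10949, 10950 and 10986, and from 8.87 to 8.78 and from 8.97 to 8.34 in the wt lines 10977 and 10980. Each fl pair was higher with 4-OHT and each wt pair lower, while the fl vehicle and fl 4-OHT arrays overlapped. With 4-OHT the fl lines had a change of 0.43 (SE 0.13, limma adjusted p = 0.251) and the wt lines one of -0.36 (SE 0.16, adjusted p = 1). Zbp1, a sensor of Z-form nucleic acid that triggers necroptosis, went from 7.23 to 7.49, from 7.24 to 7.47 and from 7.21 to 7.67 in the fl lines. In the wt lines it went from 7.17 to 7.11 and from 7.01 to 6.92. Every fl 4-OHT array was above every other array for Zbp1, a change of 0.31 (SE 0.10, adjusted p = 0.252). Dhx58, which encodes the RIG-I regulator LGP2, had 0.25, 0.13 and 0.96 in the fl pairs, with a fl change of 0.45 (SE 0.17, adjusted p = 0.342) that was 0.19 (SE 0.09) without line 10986. Ifih1, the gene of the long RNA sensor MDA5, was higher in 2 fl pairs and lower in line 10950, where it went from 8.16 to 7.61. Its fl change was -0.04 (SE 0.18), or -0.25 (SE 0.15) without line 10986.

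Among the signalling and feedback genes, Parp14 had the smallest p of all members. PARP14 is a mono-ADP-ribosyltransferase that is induced by interferon. Its level went from 7.49 to 8.11, from 7.46 to 7.92 and from 7.49 to 8.0 in the fl lines, and from 7.56 to 7.43 and from 7.26 to 7.19 in the wt lines. The 3 fl vehicle arrays were close together, at 7.48 ± 0.02 (SD, n = 3), and every fl 4-OHT array was above every other array. The fl change was 0.53, 1.44-fold (95% interval 0.31 to 0.75, SE 0.09, limma adjusted p = 0.0979). The wt change was -0.10 (SE 0.11, adjusted p = 1).

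The partner genes Dtx3l and Parp9 encode an E3 ligase and an ADP-ribosyltransferase that act as a complex. Dtx3l had log2 changes of 0.25, 0.10 and 1.06 in lines 10949, 10950 and 10986, and its fl change was 0.47 (SE 0.19, limma adjusted p = 0.37) and 0.18 (SE 0.09) without line 10986. Parp9 had 0.24, -0.00 and 0.73, a fl change of 0.32 (SE 0.15, adjusted p = 0.451) that was 0.12 (SE 0.10) without line 10986. Both values were largest in line 10986, from a low vehicle array. Usp18, which removes ISG15 from proteins and damps the receptor, stayed between 6.49 and 6.65 on all 10 arrays. Stat2, a subunit of ISGF3, was lower in all 3 fl pairs, with a change of -0.18 (SE 0.16, adjusted p = 0.792), or -0.10 without line 10986. Herc6, the mouse ligase for ISG15, was higher in lines 10949 and 10986 and lower in line 10950 and in both wt lines, with a fl change of 0.18 (SE 0.15, adjusted p = 0.743), or 0.01 without line 10986.

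The IFIT and OAS families and the viperin group had no member that passed the test in the fl lines. IFIT proteins bind viral RNA that lacks the host cap mark. Ifit1 lay between 6.49 and 6.91 on all arrays, with a fl change of 0.12 (SE 0.10, limma adjusted p = 0.752). Ifit2 spanned 1.31 log2 units, from 6.15 on the vehicle array of line 10986 to 7.46 on the vehicle array of line 10980, and its fl change was 0.36 (SE 0.15, adjusted p = 0.414) and 0.17 (SE 0.12) without line 10986. Ifit3 lay between 6.08 and 6.81, with a mean below the filter in 1 group. Its fl change was -0.01 (SE 0.16), or 0.18 (SE 0.13) without line 10986. Active OAS enzymes make the second messenger that activates RNase L. Of the 5 genes of the OAS family, Oas1a and Oas3 were higher in all 3 fl pairs and in both wt pairs. The family had a median change of 0.09 in fl lines and 0.08 in wt lines. Oas2 lay between 7.29 and 7.94, with a fl change of -0.01 (SE 0.10), and the family members Oasl1 and Oasl2 had -0.10 (SE 0.11) and 0.09 (SE 0.10). Oas1a had a fl change of 0.27 (SE 0.13). Without line 10986 the fl changes of Oas1a, Oas2, Oasl1 and Oasl2 were 0.13, -0.04, 0.01 and 0.19. Rsad2, the gene of the antiviral enzyme viperin, stayed between 6.25 and 6.55, and its neighbour Cmpk2, a mitochondrial nucleotide kinase gene, between 6.13 and 6.37. At signals this near the filter a small change cannot be seen.

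Among genes that block RNA and translation, Eif2ak2 and Samd9l went different ways in the fl lines. Eif2ak2 encodes PKR, the kinase that stops translation when it binds double-stranded RNA. It went from 9.62 to 9.90, from 9.02 to 9.23 and from 8.75 to 9.80 in the fl lines and from 9.54 to 9.42 and from 9.72 to 9.44 in the wt lines. All 3 fl pairs were higher and both wt pairs lower, and the fl change was 0.51 (SE 0.17, limma adjusted p = 0.294), or 0.24 (SE 0.10) without line 10986. Samd9l, a growth-restraining gene that is mutated in familial myeloid disease, went from 8.23 to 7.72 and from 7.81 to 7.19 in lines 10949 and 10950 and from 7.60 to 7.77 in line 10986. In the wt lines it went from 9.22 to 8.69 and from 8.92 to 8.33. It was thus lower with 4-OHT in 4 of the 5 lines, including both without a floxed allele, with a fl change of -0.32 (SE 0.16, adjusted p = 0.504; -0.56 without line 10986) and a wt change of -0.56 (SE 0.20, adjusted p = 1). Isg20, a 3′ to 5′ exonuclease gene, was lower in both wt lines and in line 10950 and higher in lines 10949 and 10986, with a fl change of 0.18 (SE 0.15, adjusted p = 0.775), or -0.03 without line 10986.

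The membrane restriction genes had the IFITM family on one side and Bst2 on the other. IFITM proteins sit in the membranes of the cell surface and endosomes and stop viral fusion. Ifitm3 went from 11.81 to 12.23, from 11.69 to 12.19 and from 10.75 to 12.00 in the fl lines and from 11.68 to 11.78 and from 11.90 to 11.57 in the wt lines. Every fl 4-OHT array was above every other array. The fl change was 0.72, 1.65-fold (95% interval 0.29 to 1.16, SE 0.18, limma adjusted p = 0.178), and 0.46 (SE 0.12, adjusted p = 0.0924) without line 10986.

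Ifitm1 was the member with the widest range, 2.57 log2 units, because both arrays of line 10986 were low. It went from 11.83 to 12.00, from 12.17 to 12.63 and from 10.06 to 10.51 in the fl lines, and from 11.86 to 11.83 and from 12.42 to 12.55 in the wt lines. The fl change was 0.36 (SE 0.11, limma adjusted p = 0.232). Its second probe set gave a mean fl change of 0.49. Ifitm2 had 3 probe sets with mean fl changes of 0.09, 0.08 and 0.21. The IFITM genes are close paralogs, so signal could be shared between their probes, and each value is uncertain to that extent. Bst2, the gene of tetherin, which holds budding virus at the cell surface, had a fl change of -0.11 (SE 0.09, adjusted p = 0.737), and every fl 4-OHT array was below every fl vehicle array.

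Gbp3 had the largest fl change of the members. It encodes a guanylate-binding protein, a GTPase that is induced most by interferon gamma and attacks membranes around intracellular microbes. It went from 8.89 to 9.93, from 9.10 to 9.65 and from 7.71 to 9.69 in the fl lines and from 8.36 to 8.33 and from 8.11 to 7.69 in the wt lines. Every fl 4-OHT array was above every other array, and the lowest fl vehicle array was that of line 10986. The fl change was 1.19, 2.28-fold (95% interval 0.59 to 1.79, SE 0.25, limma adjusted p = 0.128). Probes of guanylate-binding protein genes may share signal, since these genes are close paralogs. Psmb8, a catalytic subunit of the immunoproteasome, had a fl change of 0.01 (SE 0.15, adjusted p = 1), with -0.32, 0.10 and 0.26 in the 3 lines and -0.11 without line 10986.

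Of the remaining members, Xaf1, a pro-apoptotic antagonist of XIAP, went from 7.20 to 7.62, from 6.91 to 7.40 and from 7.09 to 7.39 in the fl lines. In the wt lines it went from 7.04 to 7.16 and from 6.96 to 6.76. The fl 4-OHT arrays were all above the others, with a fl change of 0.41 (SE 0.11, limma adjusted p = 0.191). Ifi35, which encodes a partner of NMI, had a fl change of 0.14 (SE 0.18, adjusted p = 0.916), or -0.11 without line 10986.

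For 6 members there was no overlap between fl vehicle and fl 4-OHT arrays with 4-OHT higher, Gbp3, Parp14, Ifitm3, Xaf1, Zbp1 and Usp18, which is 19.4% of the 31 against 4.55% of all genes. For Usp18 the gap was small, with a fl change of 0.03 (SE 0.09). Bst2 was the 1 member with every fl 4-OHT array below every fl vehicle array (3.23%, against 7.27% of all genes).

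**Figure D3:**
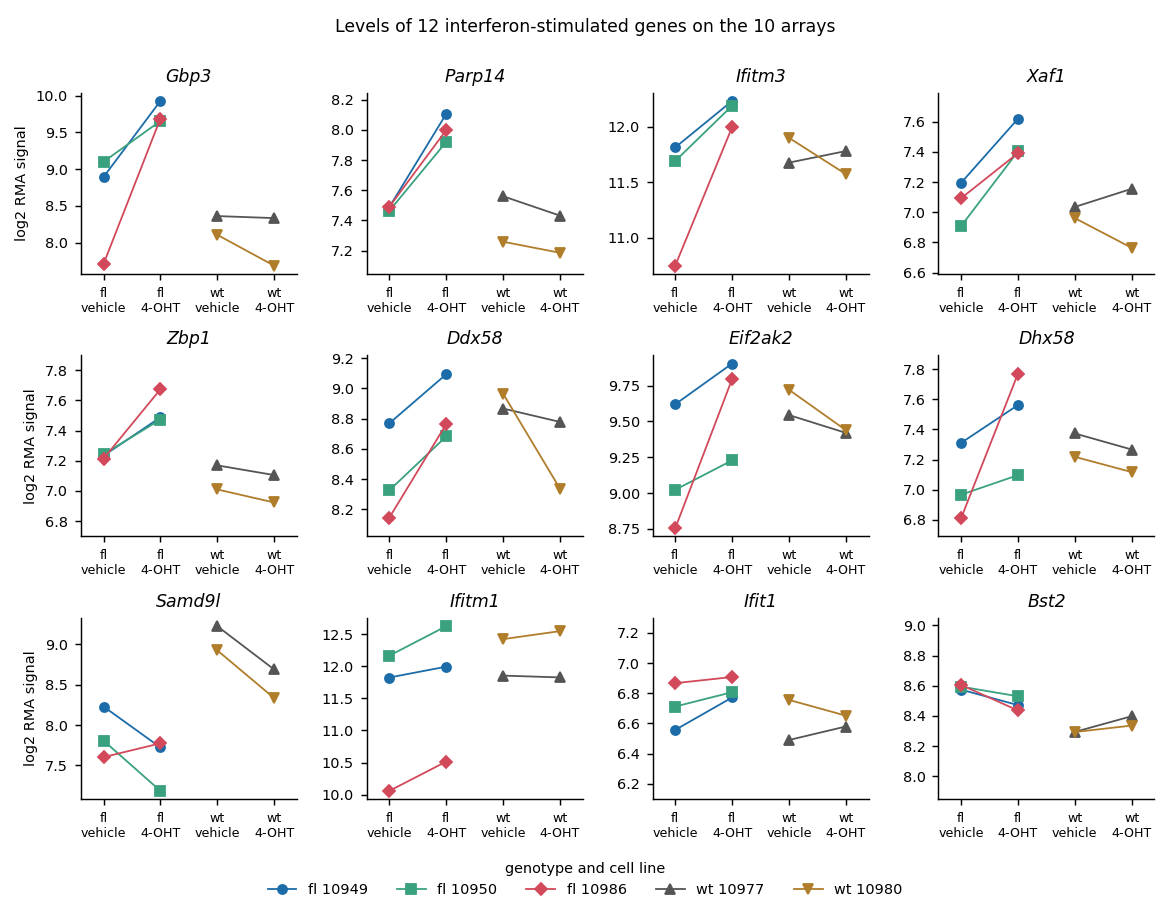
Log2 signal of 12 members on each of the 10 arrays, by group, with the vehicle and 4-OHT array of a line joined. Gbp3, Parp14, Ifitm3, Xaf1 and Zbp1 have all 3 fl 4-OHT points above all fl vehicle points, and Samd9l is lower in the fl than in the wt lines under both treatments.

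In the wt lines, which carry Cre-ER and received the same 4-OHT, 0 of 31 members passed the test, as did 0% of all genes. At an unadjusted p under 0.05, limma gave 1 member, Samd9l, against 0.147% of all genes. The fit took a gene's spread from the fl and wt pairs together. Over all genes the SD of the change was 0.26, 0.26 and 0.50 in fl lines 10949, 10950 and 10986. It was 0.17 and 0.19 in wt lines 10977 and 10980. The test was thus strict for the wt lines, and its lack of calls cannot show that 4-OHT left these genes unchanged. Of the members, 13 were lower in both wt pairs (41.9%, against 24.5% of all genes) and 6 were higher in both (19.4%, against 24.3%). The 6 were Ifit3, Oas1a, Oas3, Oasl1, Oasl2 and Bst2, of which 4 belong to the OAS family. The median change was -0.09, and -0.03 without line 10980, beside -0.00 over all genes.

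The difference of the 4-OHT effect between fl and wt lines was tested directly. It was above 0 for 26 of 31 members (47.9% of all genes), with a median of 0.24 against -0.01. None of the 31 passed, as none of the 15662 genes did (0%), and 7 members had an unadjusted p under 0.05, against 5.82% of all genes. The smallest p were those of Parp14 at 0.63 (SE 0.15, limma adjusted p = 0.677), Ddx58 at 0.79 (SE 0.21, adjusted p = 0.677), Gbp3 at 1.41 (SE 0.40, adjusted p = 0.71), Ifitm3 at 0.83 (SE 0.29, adjusted p = 0.775) and Xaf1 at 0.44 (SE 0.17, adjusted p = 0.802). Higher in all fl pairs and lower in both wt pairs were 7 members, Ddx58, Dhx58, Zbp1, Dtx3l, Parp14, Eif2ak2 and Gbp3 (22.6%, against 4.58% of all genes). Bst2 showed the opposite pattern (3.23%, against 3.49% of all genes).

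Under 4-OHT, Parp14 was higher in the fl than in the wt lines, and it was the only member to pass in any comparison with all arrays. Its mean was 8.01 ± 0.09 (SD, n = 3) against 7.31 ± 0.17 (SD, n = 2), a log2 difference of 0.70 or 1.62-fold (95% interval 0.43 to 0.97, SE 0.12, limma adjusted p = 0.0436). This was 1 of 31 members, where 0.645% of all genes passed, and 6 members had an unadjusted p under 0.05, against 10.8%. The median difference of the members was 0.21, beside 0.02 over all genes. The call ended without any 1 of the 5 lines (adjusted p from 0.0798 without line 10977 to 0.555 without line 10980), without the block (adjusted p = 0.0527) and with arrays centred on their median (adjusted p = 0.0541).

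Next under 4-OHT came Zbp1, at 0.53 (SE 0.10, limma adjusted p = 0.0693), and Gbp3, at 1.75 or 3.35-fold (95% interval 0.90 to 2.59, SE 0.37, adjusted p = 0.0875). Gbp3 passed without line 10986, at 1.78 (adjusted p = 0.0362). Xaf1 was at 0.51 (SE 0.14, adjusted p = 0.171) and Psmb8 at 0.69 (SE 0.24, adjusted p = 0.3). In the other direction was Samd9l, at -0.95 or 0.518-fold (SE 0.23, adjusted p = 0.127). Every fl array was above every wt array for 13 members (41.9%, against 12.6% of all genes) and below for 2, Samd9l and Ifitm2 (6.45%, against 14.2%). The 13 were Zbp1, Herc6, Parp14, Ifit1, Ifit3, Oas3, Oasl2, Cmpk2, Ifitm3, Bst2, Gbp3, Psmb8 and Xaf1.

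Under vehicle, 0 of 31 members passed between fl and wt lines, where 0.0192% of all genes did, and 5 had an unadjusted p under 0.05 in limma, against 9.83% of all genes. The median difference of the members was -0.04, beside 0.03 over all genes. Samd9l had the smallest p, at 7.88 ± 0.32 (SD, n = 3) against 9.07 ± 0.21 (SD, n = 2) in the wt lines, a difference of -1.19 or 0.437-fold (95% interval -1.72 to -0.66, SE 0.23, limma adjusted p = 0.235). Bst2 was 0.30 higher (SE 0.08, adjusted p = 0.36) and Stat2 0.40 higher (SE 0.17, adjusted p = 0.506), while Ddx58 was at -0.50 (SE 0.21, adjusted p = 0.499) and Ifitm2 at -0.24 (SE 0.10, adjusted p = 0.499). The fl arrays were all above the wt arrays for 4 members (12.9%, against 18.6% of all genes) and all below for 5 (16.1%, against 12.1%). Parp14 was at 0.07 (95% interval -0.19 to 0.34) and Gbp3 at 0.33 (95% interval -0.51 to 1.18). Without line 10986, Gbp3 was at 0.76 (SE 0.23, limma adjusted p = 0.707) under vehicle, and without its vehicle array alone, with no replicate block, at 0.76 (SE 0.21, adjusted p = 0.513). The 5 comparisons use the same 10 arrays and are not independent of each other.

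**Figure D4:**
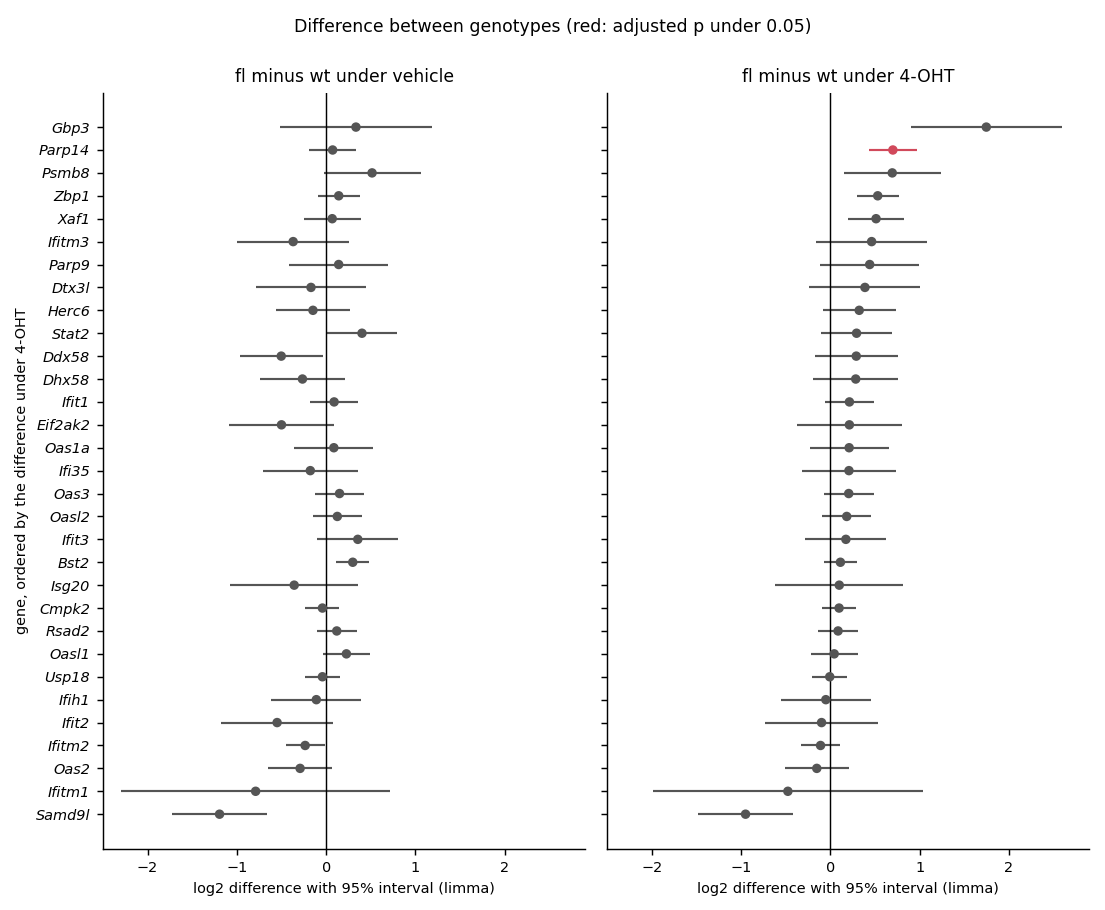
Log2 difference between fl and wt lines of the 31 tested members, under vehicle and under 4-OHT, with 95% confidence intervals from limma. Parp14 under 4-OHT, at 0.70, is the only member with an adjusted p under 0.05, and Samd9l lies below 0 under both treatments (-1.19 and -0.95).

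The changes were read against the ISRE core. Of the 13 tested members with the core in their window, 8 were higher in all 3 fl pairs (61.5%), and of the 12 without it, 3 were (25.0%). Among other genes these shares were 21.6% of 440 with the core and 14.7% of 11920 without it. Other genes here are all tested non-members with a window, so the further interferon-induced genes read below were not taken out. The median fl change was 0.12 with the core and 0.16 without it, so the medians did not follow the counts. Xaf1 and Samd9l, which had opposite signs, both lack these letters in their windows. The tested members Dhx58, Zbp1, Usp18, Parp9, Parp14 and Oas2 had no window and are in neither group. Of these, Dhx58, Zbp1, Usp18 and Parp14 were higher in all 3 fl pairs.

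The rest of the pathway was read from 4 further lists. Of 18 interferon genes listed, 8 were tested, 0 were called, and none was higher in all 3 fl pairs, against 14.6% of all genes. In lines 10949 and 10950 alone, 6 of the 8 were higher in both, against 33.6% of all genes. Their median changes were 0.18, 0.20 and -0.54 in lines 10949, 10950 and 10986, and 0.15 and -0.02 in the wt lines 10977 and 10980. The gene of interferon beta, Ifnb1, was below the filter on every array (5.77 to 6.18), and the tested genes with the smallest p had values such as -0.14 (SE 0.12) for Ifna9 and -0.06 (SE 0.12, limma adjusted p = 0.968) for Ifng in the fl lines. All 8 tested interferon genes were highest on the vehicle array of line 10986, as were 4238 of all 15662 genes, the most for any array.

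Among 22 tested receptor, kinase, STAT and IRF genes, the median change was 0.16 in the fl lines. By line the medians were 0.06, 0.04 and 0.23 in lines 10949, 10950 and 10986. Of these genes, 1 rose in the fl lines. This was Irf8, which drives the development of monocytes and dendritic cells and went from 9.06 to 10.10, from 9.11 to 9.91 and from 9.48 to 10.42, a change of 0.93 (SE 0.10, limma adjusted p = 0.0373). In the wt lines it went from 8.86 to 8.96 and from 8.17 to 8.20, and under 4-OHT it was higher in the fl lines by 1.56 (SE 0.26, adjusted p = 0.044). Irf9, the DNA-binding subunit of ISGF3, stayed between 8.94 and 9.28, and Irf7, the amplifier of the interferon response, between 6.12 and 6.76. The receptor gene Ifnar1 had a fl change of 0.32 (SE 0.12, adjusted p = 0.328). Irf3, the factor that induces interferon beta, had -0.44, -0.60 and -0.28 in the 3 fl lines (adjusted p = 0.18), and Irf5 had a mean of 0.46 (SE 0.13, adjusted p = 0.232).

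Of 16 tested genes of nucleic acid sensing, none was called in the fl lines and the median change was 0.11. By line the medians were -0.03, -0.04 and 0.18 in lines 10949, 10950 and 10986, so only line 10986 had a positive one. The adaptor gene Mavs, downstream of RIG-I and MDA5, had -0.80, -0.47 and -0.96 in the fl lines (limma adjusted p = 0.109), while Ddx58 was higher in the same pairs. Myd88, the adaptor of Toll-like receptors, had 0.48, 0.54 and 0.78 (adjusted p = 0.107), and Samhd1, a dNTP hydrolase gene, had 0.52, 0.54 and 1.03 (adjusted p = 0.109).

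A list of 91 other interferon-induced genes, which shares Ifih1 with the members, had 67 tested genes. Of these, 0 were called in the fl lines in limma. At an unadjusted p under 0.05 there were 22, against 12.3% of all genes. The median change of the list was 0.19 (fl) and -0.05 (wt), beside 0.18 and -0.09 for the members. By line its medians were 0.14, 0.10 and 0.32 in lines 10949, 10950 and 10986. Of its 67 tested genes, 34 were higher in all 3 fl pairs and 5 lower, against 14.6% and 14.5% of all genes. The smallest p were those of Gbp7, at 1.21, 0.78 and 2.03 in the 3 fl lines (adjusted p = 0.094), Slfn2, at 0.91, 0.95 and 1.24 (adjusted p = 0.095), Ube2l6, the conjugating enzyme of ISG15, at 0.48, 0.55 and 0.69 (adjusted p = 0.098), and Cd274, which encodes the checkpoint ligand PD-L1, at 0.57, 0.45 and 0.62 (adjusted p = 0.115). These 4 and the members Gbp3 and Parp14 were higher in each fl line, and none passed with all arrays in the fl comparison.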

How the data were processed

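RNA of sorted c-Kit-positive cells of 5 lines was measured on 10 one-colour arrays. The authors' values are RMA intensities, 1 for each probe set on each array, as the submitters' processing notes name the method. RMA subtracts background and normalizes between arrays, which can hide a shift shared by all genes. The deposited values did not share one distribution: the median signal was 145 to 158 and the log2 interquartile range 2.67 to 3.05, lowest on the vehicle array of line 10986. The deposited intensity values are linear, and log2 was taken here. Arrays have no read depth, so their number limits the precision: the members' median SE was 0.13 in the fl and 0.16 in the wt comparison.

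Of 35556 probe sets, 21789 had 1 gene symbol, 1621 several, and 12146 were not listed in the annotation. The filter was the 25th percentile of all probe sets. Tests used limma 3.58.1 in R 4.3.3 (two-sided, Benjamini-Hochberg over 15662 genes, threshold 0.05). Changes with 4-OHT had the line as a fixed block. The contrast of fl with wt lines within a treatment came from group means, the line taken as random (correlation 0.165, from statmod 1.5.0). Degrees of freedom were 3 residual and 6.69 with the prior in the 4-OHT fit, and 6 and 8.78 in that of group means. The pairing comes from the series design: the arrays of a line come from 1 leukaemia. As a check, their deviations from the group means correlated at 0.78, 0.22, -0.06, 0.43 and 0.43 in lines 10949, 10950, 10986, 10977 and 10980, where the last 2 are equal because a group of 2 has mirrored deviations. Promoter windows and their coordinates are RefSeq's, GRCm38.p6. The fl 4-OHT term of the fit was tried on simulated data with the same spread on every array. Those data held no array that stood apart, so the trial does not cover the vehicle array of line 10986.

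The members, lists and tests were chosen with earlier results of these data known. Named with values were members past the threshold, the 5 with the smallest p in each comparison, the 8 with the widest range, 1 or more of each role and up to 4 genes of each further list. Other members and pathway genes given for their role, among them Ifnb1, Irf7, Irf9 and Ifnar1, were chosen after their values were seen. Alternatives changed the block, filter, probe set rule, scale, prior, array weights or the lines used.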

Additional observations from a re-analysis of the deposited data

Results flagged for a closer look

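For 8 members, every fl pair went one way with 4-OHT and every wt pair the other. The log2 difference of the 4-OHT change, fl minus wt, was 1.41 for Gbp3, 0.79 for Ddx58, 0.71 for Eif2ak2, 0.63 for Parp14, 0.56 for Dtx3l, 0.55 for Dhx58 and 0.39 for Zbp1. Without line 10986 it was 1.02 for Gbp3, 0.70 for Ddx58, 0.45 for Eif2ak2, 0.64 for Parp14, 0.26 for Dtx3l, 0.29 for Dhx58 and 0.32 for Zbp1. With all arrays it was -0.19 for Bst2, which alone was lower in the fl and higher in the wt pairs. Of all genes tested, 4.58% showed the first pattern and 3.49% the second. The difference itself was tested in limma with both 4-OHT terms in 1 fit, and none of the 8 passed: the adjusted p was 0.677 for Ddx58 and Parp14, 0.71 for Gbp3, 0.807 for Eif2ak2, 0.825 for Zbp1, 0.875 for Dhx58, 0.889 for Dtx3l and 0.928 for Bst2.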

How the results depend on the processing

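Over 15 alternatives, the members' median change in the fl lines lay between 0.12 and 0.28 and that of the fl minus wt difference between 0.15 and 0.34. Under 4-OHT, the median fl minus wt difference lay between 0.17 and 0.25 over 14 alternatives. Members past the threshold in the fl lines numbered 0 to 3 when each line was left out in turn (3 without line 10986), and 0 under every other alternative run. Without line 10986, 6 members changed the sign of their fl change, all at 0.18 or less in size with all arrays (Ifit3, Oasl1, Rsad2, Isg20, Psmb8 and Ifi35). The vehicle median of -0.04 lay between -0.15 and 0.04 over 14 alternatives, on either side of 0. Under 4-OHT the count was 1 with all arrays and 0 with no replicate block, 0 with arrays centred on their median, 0 to 1 with each line left out in turn and 4 with array weights (Zbp1, Parp14, Samd9l and Gbp3). Without line 10986 the 1 member was Gbp3 in place of Parp14. Leaving out the vehicle array of line 10986 with no replicate block also put Gbp3 (adjusted p = 0.0104) in place of Parp14 (0.0539). Under vehicle, array weights gave 6 (Ddx58, Ifit3, Eif2ak2, Samd9l, Bst2 and Gbp3), where 2495 of all genes passed, and every other alternative 0. These weights, estimated gene by gene, were chosen after seeing the data. The default estimate stopped before it converged and gave 1 array a weight of 116. It called 13 members under vehicle, where it called 6237 of all 15662 genes. Under 4-OHT it called 6 members and 1106 of all genes. The wt median lay between -0.094 and -0.027 with each line left out, and -0.027 was the value without line 10980. The fl change of Ifitm1 reversed to -0.28 without the vehicle array of line 10986 and with no replicate block, where its low 4-OHT array of that line has no partner. Among members, 10 to 21 were higher in every fl pair kept (10 with the filter at the 50th percentile, which tests fewer genes). Over all genes, 24 passed in the fl lines (0 to 440), 0 in the difference (0 to 20), 3 under vehicle (0 to 2495, the highest with array weights) and 101 under 4-OHT (0 to 739). With the strictest filter Xaf1 and Cmpk2 gave no value. The replicate block otherwise changed no call of a member. Apart from what is stated, the cause of these shifts was not tested.

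With 3 fl and 2 wt lines, leaving out 1 line also removes residual degrees of freedom, and a wt line left out leaves 1 wt array per treatment, which is assumed to vary like the others. Nothing in the labels says that the cultures of a line were repeated, so the spread is that between leukaemias. Centring or quantile normalization turned the sign of a fl change only for Oas2 (-0.01) and Psmb8 (0.01), and both moved the median of all genes by under 0.1.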
